A study of Mus musculus with 8 samples.

Results

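The Hox cluster genes were followed in RNA-seq of mouse embryonic stem cells, as the rows of the deposited gene table named Hoxa, Hoxb, Hoxc or Hoxd followed by a number only. Described here are 33 genes, of 19427 rows analysed in all. Another 5 annotated Hox genes, Hoxa6, Hoxb5, Hoxc6, Hoxd3 and Hoxd4, had no row and so enter no count or median below. The lowest mean of any row was 0.0565, so every row, of Hox or other genes, rests on some reads. Whether the 5 genes without a row had any is not known here. Further genes of the clusters were not analysed here.

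The cells came from the embryonic stem cell line LF2, grown in medium with serum and LIF, the cytokine that holds such cells in a self-renewing state. CRISPR-Cas9 editing placed a FLAG tag at the C-terminus of TET1, an enzyme that oxidises methylated cytosine, on both alleles, with a fluorescent protein separated from it by a 2A peptide. WT lines 2 and 5 had otherwise unaltered TET1, whereas D2018A lines 7 and 8 also carried an aspartate to alanine change made to weaken binding of TET1 to the glycosyltransferase OGT. Each line was a clone grown from a targeted cell and was sequenced as 2 technical replicates, for 4 libraries per genotype and 8 in all. The WT clones, unlike the D2018A clones, also carry a deletion distal to the Cas9 cut site. The study examined it with further lines that are not analysed here. The table holds a single mean per gene over the libraries of the authors' fit, so every level below is the authors' mean with both genotypes pooled. As shown further on, that mean appears to cover more libraries than the labels describe, and what the additional libraries are is not known here. No difference between WT and D2018A was tested for the Hox genes, because values per line were not analysed here.

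Hox genes encode homeodomain transcription factors that give cells their position along the body axis. They lie in 4 clusters, and the order of genes along a cluster follows the order of their domains in the embryo, so that low-numbered paralogs act in the hindbrain and high-numbered ones in the tail, limb and genital tubercle. In embryonic stem cells the clusters are textbook bivalent chromatin, in which promoters carry the repressive histone mark of Polycomb repressive complex 2 together with the activating mark of MLL-type methyltransferases and give little RNA. No histone mark was measured in this table, so bivalency itself was not examined.

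Most Hox genes were close to the detection limit, and 2 of the 33 stood clear of the rest. Levels are in normalised reads, that is, the reads of a gene after each library was scaled by its size factor, as a mean of libraries. The median Hox gene had a mean of 1.04 normalised reads, against 63.2 over all 19427 genes and 106 over the protein-coding genes. Of the 33 Hox genes, 17 (51.5%) reached 1 normalised read, compared with 83.3% of all genes. A mean of 10 was reached by 2 Hox genes (6.06%), compared with 66.3% of all genes. On the scale of normalised reads per kilobase (kb) of exon, which allows genes of different length to be compared, the median Hox gene was at percentile 12.0 of all genes. In these bulk samples a low level in every cell and a higher level in a few cells cannot be told apart.

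Hoxc13 and Hoxb9 were these high genes, and together they held 72.1% of the summed mean of the 33 genes (133.8 normalised reads). Hoxc13, which acts in hair follicles and nails, had a mean of 68.74 (95% Poisson interval 64.2 to 73.5). Hoxb9, a gene of the thoracic region, had a mean of 27.78 (25.0 to 30.9). The intervals use the reads that each mean stands for over all libraries, cover counting error only, and say nothing of the spread between lines. Per kb of exon the levels were 27.9 for Hoxc13 and 10.8 for Hoxb9. Their ratio per kb was 2.59 (95% binomial interval 2.28 to 2.94, on reads estimated from the means), so their order was beyond counting error. The means of the other 31 genes ran from 0.05654 to 4.087 with a median of 0.953. Hoxa7, the next by mean, was 7.6 times lower than Hoxb9 per kb (5.65 to 10.4), and Hoxc12, the next per kb, was at 3.9. None of the 33 genes had a mean between those of Hoxa7 and Hoxb9.

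The coding sequences of Hox paralogs are alike in the homeobox, so the closest stretch of 50 bases, the length of a read, was found between each of the high genes and its same-numbered paralogs. The search covered coding sequence only, and the closest pair of each high gene is printed to show how its homeobox region compares with a low paralog. Both sequences of a pair are read 5′ to 3′ along the coding strand on GRCm38, with bases that differ within the pair in capitals. The Hoxc13 stretch lies in exon 2 at chr15:102927312-102927361 on the plus strand and the Hoxa13 stretch in exon 5 at chr6:52258956-52259005 on the minus strand.
Hoxc13: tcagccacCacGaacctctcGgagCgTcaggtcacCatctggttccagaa
Hoxa13: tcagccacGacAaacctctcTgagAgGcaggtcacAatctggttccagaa
The Hoxb9 stretch lies in exon 2 at chr11:96274660-96274709 on the plus strand and the Hoxd9 stretch in exon 2 at chr2:74699216-74699265 on the plus strand.
Hoxb9: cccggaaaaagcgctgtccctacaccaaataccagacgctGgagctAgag
Hoxd9: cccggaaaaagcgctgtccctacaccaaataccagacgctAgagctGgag

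The closest coding stretches differed at 6 of 50 bases for Hoxc13 and Hoxa13 and at 2 for Hoxb9 and Hoxd9. Over whole transcripts, in the sense direction only, no stretch of 50 bases of Hoxc13 was present in any other annotated gene. Of the 2574 stretches of Hoxb9, 6 (0.233%) were, spread over 114 other genes. Hoxc9, a paralog of the same group, was the only Hox gene among them. The closest coding stretch of Hoxc9 differed at 3 of 50 bases, so no exact match to Hoxc9 lay within the coding sequences compared. An exact read in the sense direction of these genes therefore matched no other annotated transcript, save in those 6 stretches of Hoxb9. Across the 33 genes, 21 had no stretch shared in that direction and 12 had some. The highest such shares were in Hoxa2 (12.7%) and Hoxd11 (10.0%). Overlap with antisense genes is not covered by this search. Hoxb3 and Hoxa7 had no shared stretch, yet shared 52.9% and 20.4% of their exon bases with the antisense Hoxb3os and Hoxaas3.

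**Figure D1:**
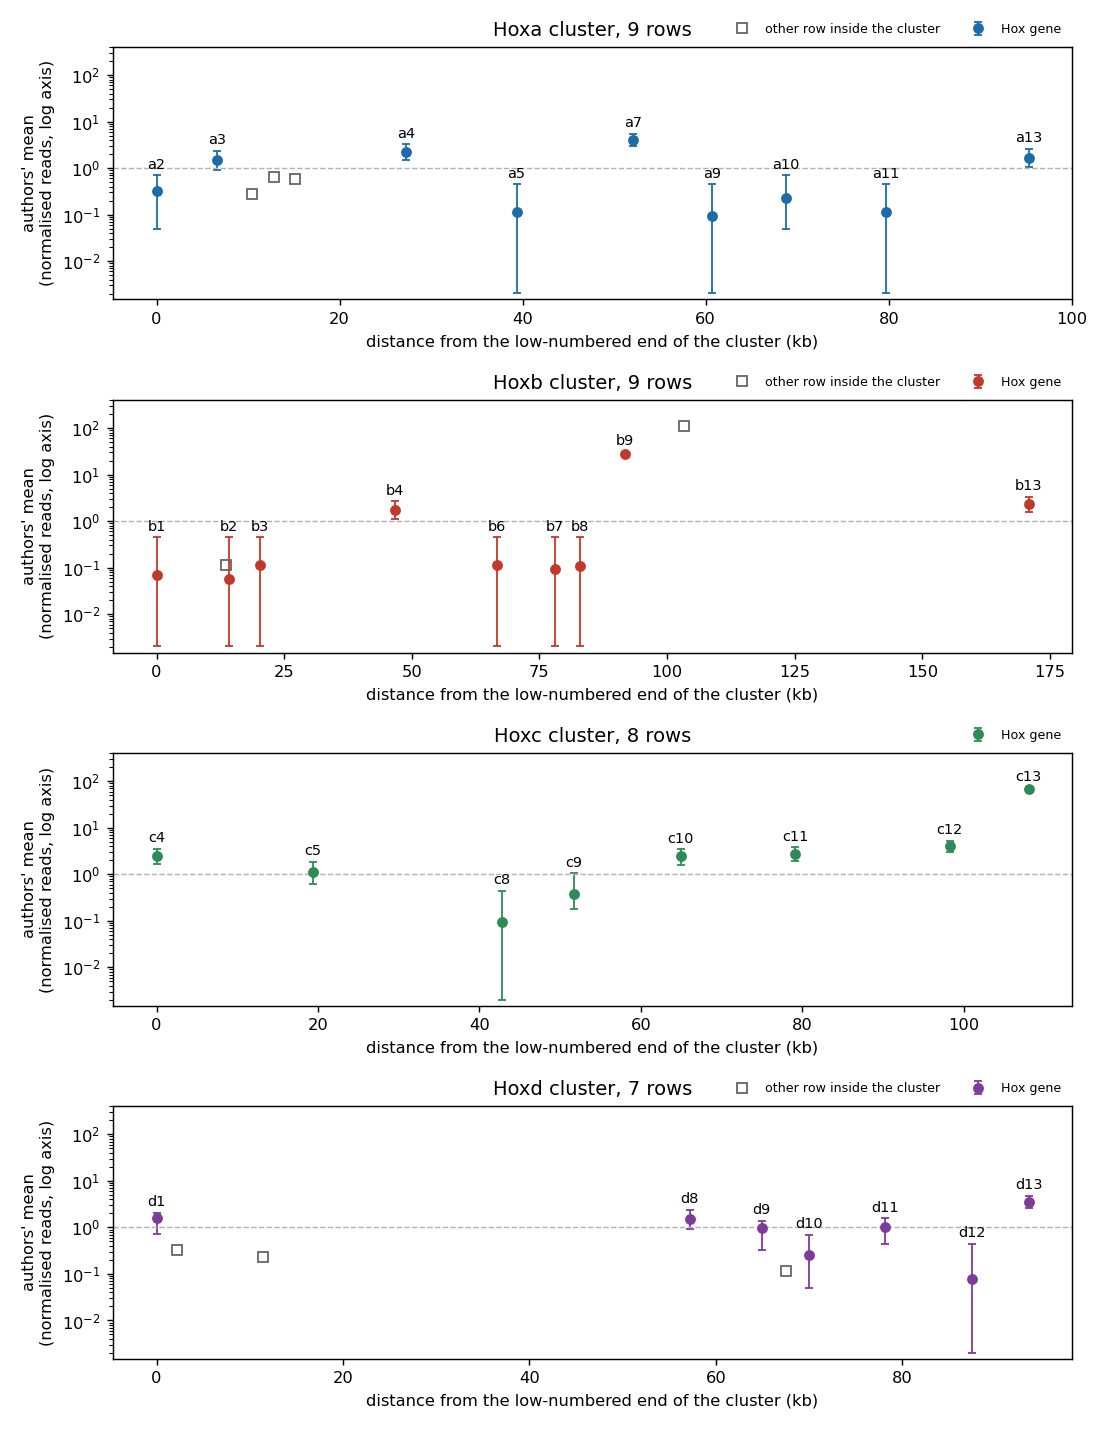
Authors' mean of each Hox gene (filled points, with 95% counting intervals) and of other rows inside each cluster (open squares) in normalised reads on a log axis, against the distance in kb of the gene's edge from the low-numbered end of its cluster. Hoxc13 lies at the high-numbered end of its cluster, Hoxb9 lies beside an open square at 110.9, and the dashed line marks 1 normalised read.

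The 4 clusters differed in how their levels were spread, and the plot of levels along the clusters shows this by position. The 9 Hoxa genes described covered 98.5 kb of chromosome 6 (52162417 to 52260880, minus strand). None of them reached 10 normalised reads, and their median was 0.319, or 0.18 per kb. Hoxa7 held 34.3% of their summed level per kb, and Hoxa7 and Hoxa4 were both at 1.42 per kb. Along the chromosome, Hoxa2 had a mean of 0.319, Hoxa3 of 1.498, Hoxa4 of 2.261 (1.49 to 3.24) and Hoxa5 of 0.1148 (0.00203 to 0.447). Beyond these, Hoxa7 had a mean of 4.087 (3.04 to 5.37), Hoxa9 of 0.09302 (0.00203 to 0.447), Hoxa10 of 0.2238, Hoxa11 of 0.1148 (0.00203 to 0.447) and Hoxa13 of 1.676. The intervals of Hoxa7 and Hoxa9, neighbours in this list, did not overlap, and levels did not follow the gene order. Hoxa7 shared 20.4% of its exon bases with Hoxaas3, an antisense RNA, at 0.6375 normalised reads. Whether reads were counted by strand is not given in the sources used here, so reads of the shared bases cannot be told apart if strand was not used.

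The Hoxb cluster covered 174 kb of chromosome 11 (96194316 to 96368256, plus strand). It had the lowest median of the clusters, at 0.115 normalised reads or 0.0585 per kb. Hoxb9 (chr11:96271457-96276595) held 84.5% of the summed level per kb of its 9 genes. From the group 1 end, the means were 0.06961 for Hoxb1 (0.00203 to 0.447), 0.05654 for Hoxb2 (0.00203 to 0.447), 0.1148 for Hoxb3 and 1.74 for Hoxb4 (1.1 to 2.67). Hoxb6 followed at 0.1148, Hoxb7 at 0.09302, Hoxb8 at 0.1087, then Hoxb9, and Hoxb13 at 2.354 (1.56 to 3.34). Hoxb9 was thus separated from Hoxb8, its neighbour 5.31 kb away, by the steepest change between adjacent genes in this cluster. In this cluster 6 of the 9 genes rested on a single read each. On the other side of Hoxb9, 6.59 kb away and on the same strand, the lincRNA Gm53 had a mean of 110.9 (27.9 per kb), and Hoxb13 lay 74.0 kb away.

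The Hoxc cluster covered 116 kb of chromosome 15 (102921103 to 103036852, plus strand) and had the highest median, at 2.45 normalised reads or 1.12 per kb. Here 6 of 8 genes reached 1 normalised read, compared with 4 of 9 in Hoxa, 3 of 9 in Hoxb and 4 of 7 in Hoxd. Hoxc13, at the group 13 end (chr15:102921103-102928814), held 77.6% of the summed level per kb. Hoxc4 had a mean of 2.485, Hoxc5 of 1.138, Hoxc8 of 0.09302 (0.00203 to 0.447) and Hoxc9 of 0.3764 (0.176 to 1.05). Hoxc10 had a mean of 2.424, Hoxc11 of 2.715 (1.89 to 3.81) and Hoxc12 of 4.026 (2.97 to 5.28). From Hoxc8 to Hoxc13 each gene was higher than the one before it per kb, at 0.0328, 0.155, 1.27, 1.34, 3.9 and 27.9, although the counting intervals of Hoxc10 and Hoxc11, and of Hoxc8 and Hoxc9, overlapped on that scale. Hoxc5 and Hoxc10 share exon bases on the same strand (5.37% and 8.7% of their own), so reads there could be counted to either gene or to neither.

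The Hoxd cluster covered 96.8 kb of chromosome 2 (74668310 to 74765142, plus strand), and no gene in it stood apart as Hoxb9 and Hoxc13 did in theirs. Its highest member was Hoxd13 (chr2:74668310-74671599), a gene of digits and genital tubercle, with a mean of 3.58 (2.63 to 4.83) and 39.0% of the summed level per kb of 7 genes. Hoxd1 had a mean of 1.562 (0.733 to 2.08), Hoxd8 of 1.493 (0.917 to 2.38) and Hoxd9 of 0.9528. Hoxd10 had a mean of 0.2606 (0.0496 to 0.703), Hoxd11 of 1.042 and Hoxd12 of 0.07712 (0.00203 to 0.447). Hoxd13 and Hoxd12, adjacent on the chromosome, had intervals that did not overlap.

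**Figure D2:**
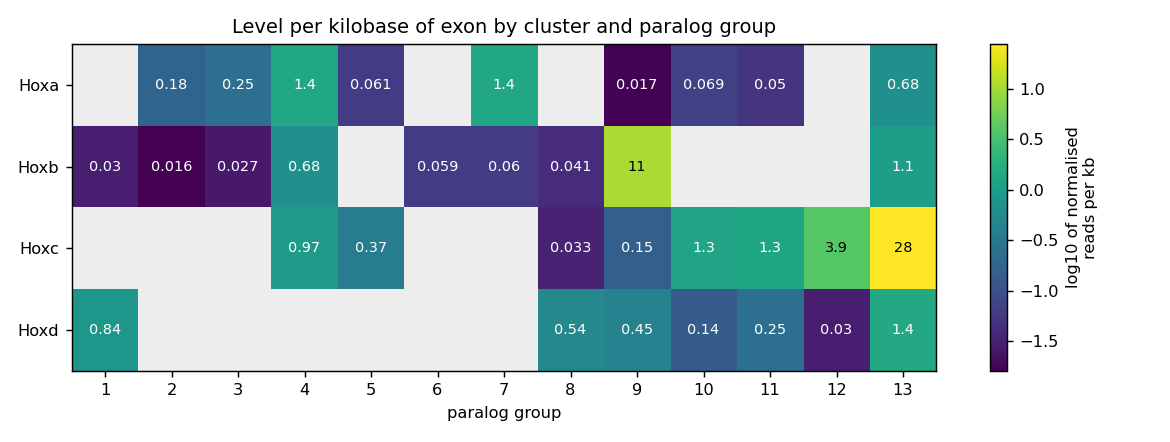
Level of each Hox gene in normalised reads per kb of exon (number in each cell, colour on a log10 scale) by cluster (rows) and paralog group (columns); grey cells have no gene or none described here. The brightest cells, Hoxb9 and Hoxc13, fall in different clusters and different paralog groups.

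Arranged by paralog group, the genes that descend from a common ancestor across clusters, Hoxb9 and Hoxc13 fell in groups 9 and 13. Their same-numbered paralogs did not share their level. In group 9 the other members were between 0.0167 (Hoxa9) and 0.446 (Hoxd9) per kb. In group 13, Hoxa13 was at 0.678, Hoxb13 at 1.07 and Hoxd13 at 1.44 per kb. Group 13 was nevertheless a group in which all 4 members reached 1 normalised read, as did the 3 analysed members of group 4. Genes of the middle groups 5 to 9 had a median of 0.246 normalised reads (12 genes), with 1.5 for groups 1 to 4 (9 genes) and 2.01 for groups 10 to 13 (12 genes). These medians describe genes and carry no test. They also leave out genes unevenly. Of those without a row, Hoxa6, Hoxb5 and Hoxc6 belong to groups 5 to 9, Hoxd3 and Hoxd4 to groups 1 to 4, and none to groups 10 to 13.

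At the lowest levels the table could be read back to single reads. Its smallest means fall on 12 steps, each shared by 38 to 123 genes, the values expected of genes counted just 1 time in a fit of 12 libraries. That is 4 more than the 8 that the labels describe, and these may or may not be of the lines described. The 12 size factors ran from 0.726 to 1.47, and libraries are numbered here by falling size factor. Which of them are WT, D2018A or something else cannot be told from a mean, so their values are given as they stand and not as groups. A unique set of whole reads per library was found for 18 of the 33 Hox genes, 62 reads in total.

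Of the 33 Hox genes, 11 (33.3%) rested on a single read in the whole experiment, whereas 3.33% of all other genes and 2.23% of other protein-coding genes did. The single read was in library 12 for Hoxa5, Hoxa11, Hoxb3 and Hoxb6, in library 9 for Hoxa9, Hoxb7 and Hoxc8, and in libraries 11, 5, 4 and 1 for Hoxb8, Hoxd12, Hoxb1 and Hoxb2. Of Hoxb1 to Hoxb8, only Hoxb4 therefore had more than 1 read among the genes analysed. Absence of these RNAs from the other libraries was not shown, since a library with no read allows up to 3.

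Genes with more reads had them in few libraries, as did some other genes of the table. Irx6 had all 7 reads in library 1 and Olig2 all 7 in library 9. Nkx6-1, also with 7 reads, had 2 each in libraries 1 and 6 and 1 each in libraries 9, 10 and 11. Whether the Hox genes differed from other low genes in this was not tested, and a gene with 3 reads can reach few libraries in any case. Hoxd1 had 11 reads in library 9, 4 in library 12 and 1 in library 6, with 0 in the other 9. Hoxd9 had 6 in library 11, 2 in library 9 and 1 in library 12. Hoxd11 was spread over 5 libraries, with 4 in library 8, 3 in library 12, 2 in library 11 and 1 each in libraries 4 and 5. Hoxc9 had 3 reads in library 1, 2 in library 4 and 1 in library 3. Hoxa2 had all 3 reads in library 10, Hoxa10 had 2 in library 5 and 1 in library 4, and Hoxd10 had 2 in library 5 and 1 in library 10. Hoxd1 and Hoxd9 thus each had most of their reads in a single library, which was not the same library.

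Over the 18 genes, library 9 held 16 of the 62 reads (25.8%), library 12 held 12 (19.4%) and library 11 held 9 (14.5%), and libraries 2 and 7 held 0. The same libraries held 12.7%, 9.39% and 7.61% of the reads of 3747 other genes recovered in the same way. Hoxd1 alone gave 11 of the 16 reads of library 9. For 5 genes near 1 to 2 normalised reads (Hoxc5, Hoxd8, Hoxa3, Hoxa13 and Hoxb4) more than 1 set of reads gave the mean, and none was chosen.

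**Figure D3:**
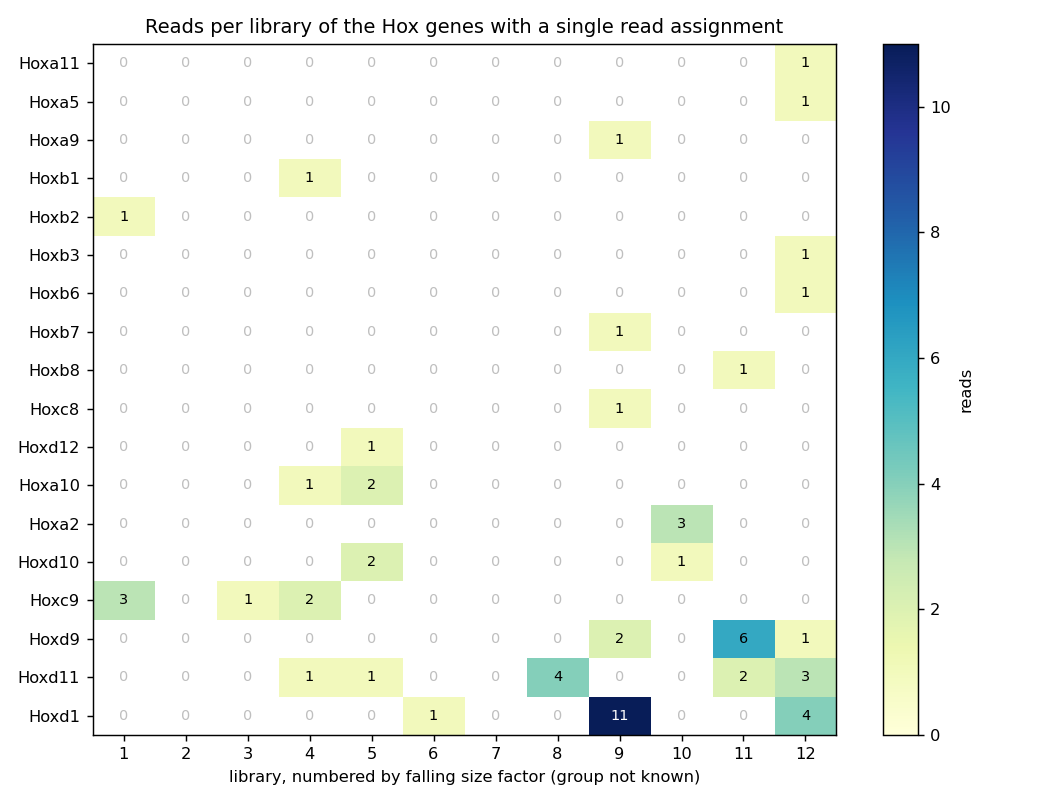
Reads in each of the 12 libraries of the authors' fit (columns, numbered by falling size factor, genotype not known) for the 18 Hox genes whose mean has a unique solution (rows, ordered by total reads). Most cells are 0, and the darkest cell is the 11 reads of Hoxd1 in library 9.

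Protein-coding genes beyond the cluster borders were mostly higher than the Hox genes, whereas most non-coding rows there were low. Of the nearest 3 protein-coding rows analysed on each side of the 4 clusters, 22 of 24 had a mean of at least 10. The median of the 24 was 347 normalised reads. A mean of at least 10 was reached by 2 of 33 Hox genes and by 73.2% of all protein-coding genes, whose median was 106. The exceptions among the 24 were Evx1 (2.026), a homeobox gene beyond Hoxa13, and Skap1 (3.812), beyond Hoxb1. Mtx2, 60.7 kb beyond Hoxd1, had a mean of 90.99, and Lnpk, 88.9 kb beyond Hoxd13, of 289.5. Smug1, 116 kb beyond Hoxc4, had a mean of 162.3, and Calcoco1, 199 kb beyond Hoxc13, of 708.2. Ttll6, 28.9 kb beyond Hoxb13, had a mean of 211.3. On the low-numbered side, 48.7 kb beyond Hoxa2, the lincRNA Halr1 reached 448.7. The other 5 non-coding rows between a cluster and its nearest protein-coding rows were low. Hotairm1, 0.298 kb beyond Hoxa2, had a mean of 2.541, and Gm44077, farther out on that side, of 0.784. Gm28265 and D930007P13Rik, 65.4 kb and 86.2 kb beyond Hoxc4, had means of 0.8154 and 0.5541. The lincRNA Hottip, 1.9 kb beyond Hoxa13, had a mean of 0.1844.

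The remaining rows inside the clusters were mostly as low as the Hox genes. There were 8, with a median of 0.301 normalised reads, and Gm53 was the single row at or above 1. Haglr, a lincRNA of the Hoxd cluster, had a mean of 0.3227, Hoxaas3 of 0.6375 and Hoxb3os of 0.1148. Hoxb3os, antisense to Hoxb3, has the same mean as Hoxb3, a single read in library 12, and the pair share 52.9% of the exon bases of Hoxb3. In all, 12 of the 33 Hox genes shared exon bases with another annotated gene.

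The machinery that writes and reads Hox chromatin was well represented in the same table. All 11 genes of Polycomb repressive complex 2 had a mean of at least 10, from 223.8 for Phf1 to 11070 for Rbbp4, with Ezh2, the main methyltransferase, at 692.9. Of 19 genes of Polycomb repressive complex 1, 18 did, with Phc1 (15440) and Cbx7 (4307) the highest, Pcgf5 at 19.34 and Cbx8 the exception at 3.056. All 13 genes of a list of MLL and COMPASS genes with the demethylases Kdm6a and Kdm6b did, from 833.2 for Kdm6b to 5531 for Kmt2c. A mean of at least 10 was reached by 66.3% of all genes and 73.2% of protein-coding genes. Per kb of exon the medians of these lists were 104, 104 and 282, compared with 0.249 for the Hox genes and 17.1 for all genes.

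Partners of Hox proteins were also present while several activators of the clusters were low. All 9 genes of the PBX, MEIS and PREP cofactors, which bind DNA together with Hox proteins, had a mean of at least 10, from 21.89 for Meis1 to 747.6 for Pbx2. Of 12 upstream regulators 6 did. That mean was reached by 66.3% of all genes and 73.2% of protein-coding genes, and neither list was tested against these shares. The retinoic acid receptors Rarg (4884) and Rara (3086) were high, and Rarb, itself a retinoic acid target, was at 2.326. Cdx2 and Cdx4, which activate central Hox genes, were at 1.491 and 4.624, and Cdx1 was at 12.23. Egr2, a hindbrain regulator of Hoxa2 and Hoxb2, was at 1.729. Cyp26a1, which breaks down retinoic acid, was at 1.461, with 10 of its 15 reads in library 11.

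**Figure D4:**
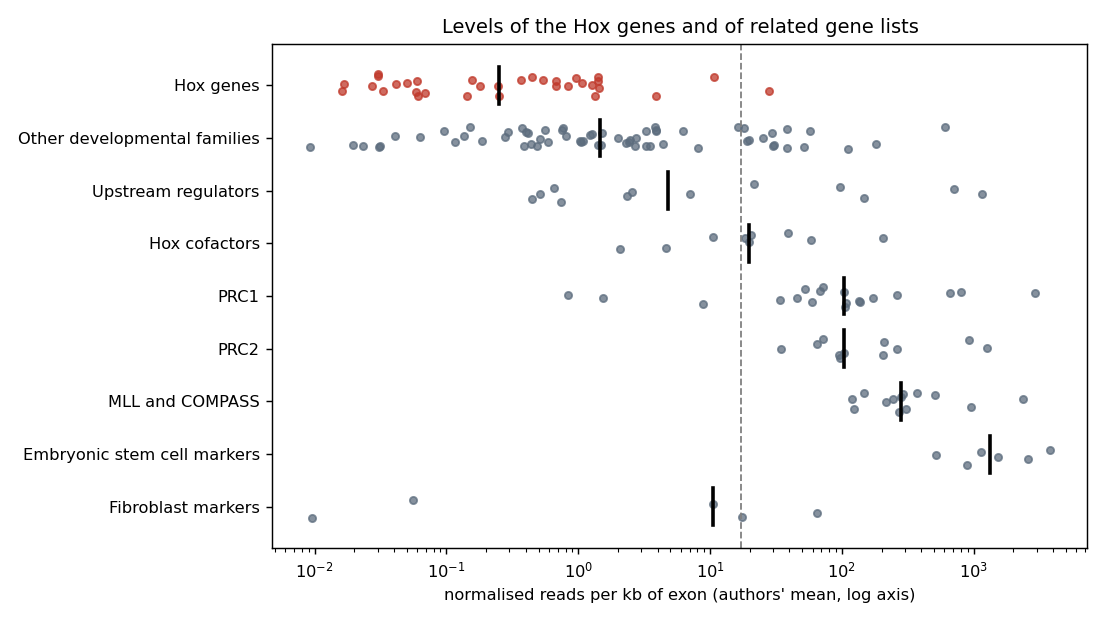
Levels of the genes of each list in normalised reads per kb of exon on a log axis (points, authors' mean), with the median of each list (black bar) and of all genes (dashed line). The Hox genes have the lowest median of the lists shown (0.249), and the embryonic stem cell markers the highest (1330).

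Other developmental transcription factor families ranged more widely than the Hox genes. Of 64 rows of the Pax, Lhx, Nkx, Dlx, Irx, Tbx and Gata families and the family of Six4, 27 (42.2%) had a mean of at least 10. That compares with 6.06% of the Hox genes, 66.3% of all genes and 73.2% of protein-coding genes. The median per kb of the 64 rows was 1.46. The highest were Tbx3 (4030) and Six4 (1983), and the lowest Pax3 (0.05654), then Lhx1 and Lhx8 (both 0.0797).

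Marker genes fixed for the cell types the cultures could hold were read beside these levels. All 6 embryonic stem cell markers were at 977.2 or above, with Nanog at 5767 and Esrrb at 23080. Of the primitive endoderm markers, Dab2 was at 123.1 and Foxa2 at 5.161. Eomes was at 198.7 and T at 3.987 among streak and mesoderm markers, and Sox1 was at 199 and Olig2 at 0.6511 among neurectoderm markers. Of 7 fibroblast markers 5 had rows, with Thy1 at 194.1, Col1a1 at 114.7, Twist1 at 17.15, Col1a2 at 0.6889 and Col3a1 at 0.09302. A mean of at least 10 was thus reached by 4 of 5 primitive endoderm and 3 of 5 streak and mesoderm markers. The same level was reached by 3 of 4 neurectoderm markers and 3 of 5 fibroblast markers with rows. These counts are near the shares over all genes (66.3%) and protein-coding genes (73.2%), and do not by themselves show such cells. The part of such cells in the Hox reads was not tested.

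Promoter sequence was set beside level, since CpG-rich promoters are the usual setting of bivalent chromatin. RefSeq promoters on GRCm38.p6 were held for 19 of the 33 genes, 21 promoters in all. Hoxc13 and Hoxb9 were not among them, so only genes with means up to 4.087 are covered. In the 250 bases before the start, the motif CG occurred 2 to 35 times with a median of 13, compared with a median of 6 over 32851 promoters of all genes. By a GC content above 50% and an observed to expected ratio of CG above 0.6, 10 of 21 Hox promoters (47.6%) and 30.8% of all promoters were CpG-rich. The promoters with the highest and the lowest ratio are printed, with each CG in capitals, to show the range among these genes. That of Hoxa5 (chr6:52204588-52204837, minus strand, 28 CG, ratio 1.11) belonged to a gene with a single read.
Hoxa5: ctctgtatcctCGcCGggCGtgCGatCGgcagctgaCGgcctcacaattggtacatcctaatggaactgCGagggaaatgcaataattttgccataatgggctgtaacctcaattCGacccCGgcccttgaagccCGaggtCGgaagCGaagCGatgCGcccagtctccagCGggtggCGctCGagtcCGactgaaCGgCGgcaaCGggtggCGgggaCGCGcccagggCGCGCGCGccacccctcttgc
The other is 1 of the pair of Hoxd11 promoters (chr2:74679308-74679557, plus strand, 2 CG, ratio 0.16), of a gene with a mean of 1.042. The second of the pair, with 20 CG and a ratio of 0.88, is not printed, and the mean cannot be assigned to either.
Hoxd11: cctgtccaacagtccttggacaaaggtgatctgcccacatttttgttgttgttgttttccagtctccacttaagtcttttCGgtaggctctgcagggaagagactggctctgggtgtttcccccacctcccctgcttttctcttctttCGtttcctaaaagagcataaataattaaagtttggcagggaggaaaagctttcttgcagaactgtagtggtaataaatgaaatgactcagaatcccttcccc
The promoter of Hoxd13, the highest gene of the Hoxd cluster, had 31 CG and a ratio of 0.901. Hoxa7, the highest by mean of the genes with a promoter in that set, had 7 CG and a ratio of 0.386. High CG content was thus found at genes with a single read as well as at genes with more.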

How the data were processed

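RNA was depleted of ribosomal RNA and sequenced by the authors as single-end reads of 50 bases. Per the submitters' processing notes, STAR 2.5.3a, GRCm38.p6 and DESeq2 1.20.0 were used. The mean column of the deposited table is a signal: gene counts divided by size factors and averaged by the authors over all libraries. The table's other value columns are the authors' comparison of genotypes (log2 fold change, its standard error, statistic, p-value and adjusted p-value), and they were not used. The planned count model for WT against D2018A needs counts per library, so it was not fitted. Strand setting of the counting is not given in the sources used here.

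Members, lists and tests were chosen with earlier results of these data known. Lengths are the union of annotated exons (GENCODE M21, whose starts and ends equal the table's for all 33 genes). Some items, rows that match the naming rule among them, are not reported here and were left out of every count. Levels of at least 1 normalised read were called detected. Depth of single libraries is known only as size factors, which sum to 12.5, so a mean of 1 stands for about 12.5 reads. Exact Poisson intervals (95%) on those reads, and exact binomial intervals for ratios, cover counting error only. For Hox genes without a unique set of reads, Hoxc13 and Hoxb9 among them, the reads were estimated as the mean times 12.5. For the 18 others the recovered total was used. Their interval is that of the total divided by 12.5, so it need not be centred on the printed mean. Reads per library were found as the whole numbers whose sum over 12 single-read steps, each shared by at least 30 genes, equals the mean within 7e-10, for means up to 1.8. Of 3242 genes with means up to 1, 3241 had a solution and 3239 a unique one, and of 797 between 1 and 1.8, 791 and 526. The search was also run on reads simulated over the same 12 steps. That run bears on the search and not on the number of libraries, which it took from these data. Every Hox gene analysed is named, with intervals for the highest 3 and lowest 2 by mean of each cluster (ties included). Of lists over 15 genes the highest 2 and lowest 2 are named. Python 3.11.15, numpy 2.4.6, scipy 1.17.1 and pandas 2.3.3 were used. Alternatives were other detection levels, other gene lengths, other reference sets for percentiles, the number of libraries, and leaving out genes that share exons.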

Additional observations from a re-analysis of the deposited data

How the results depend on the processing

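The count of 17 Hox genes at 1 normalised read became 18 at 0.5, 2 at 5, 2 at 10 and 9 at 1 normalised read per kb. The share of the summed Hoxa level held by its highest gene was 34.3% with exon length and 49.5% with coding length. That of Hoxc13 in Hoxc was 77.6% with exon length, 81.8% with coding length and 83.8% with no length scaling. The median level per kb of all Hox genes rose from 0.249 to 1.03 with coding length, since coding sequence is shorter than exons. Their median percentile was 12.0 among all genes and 1.22 when set against genes with a mean of at least 1. Without genes that share exons with another gene, the highest Hoxa mean was 1.676 in place of 4.087, because Hoxa7 is among the genes left out; the highest means of Hoxb, Hoxc and Hoxd were unchanged by that choice. Coding length came from the longest annotated coding sequence, since no reference proteins were used here. Intervals based on the 8 libraries of the labels had lower bounds of 63.2 for Hoxc13 and 24.3 for Hoxb9. No paired analysis was possible because the result comes from no test and the mean carries no replicate numbers. DESeq2 in place of edgeR, TMM against size factors and leaving out each line were not run for the same reason. Depth limits the 11 genes with a single read, whose intervals run from 0.00203 to 0.447.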
